A study of Mus musculus with 6 samples.

Results

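The genes described here encode the MHC class II antigen presentation machinery of the mouse and its master regulator: the classical class II chains H2-Aa, H2-Ab1 and H2-Eb1, the peptide-loading chains H2-DMa, H2-DMb1 and H2-DMb2, the loading modulators H2-Oa and H2-Ob, the invariant chain Cd74 and the transactivator Ciita. They were taken by name from the array table, through probe sets annotated with exactly 1 gene symbol and, where a gene had several such probe sets, through the probe set of highest mean signal. Of the 10 genes, 8 had such a probe set, among 19938 genes in all. H2-DMb1 and H2-DMb2 shared a probe set annotated with several symbols and are not analysed here. The cells were KSL cells, the cKit+Sca1+Lin- bone marrow fraction that contains the haematopoietic stem cells and early progenitors. There were 3 arrays from Runx1;Runx3 double knockout mice (DKO, Runx1fl/fl;Runx3fl/fl;Mx1-Cre+) and 3 from wild-type littermates (WT, Runx1fl/fl;Runx3fl/fl;Mx1-Cre-), and the question was what the loss of both Runx transcription factors changes.

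Both groups carried both floxed genes on a C57BL/6 background that had been reached by at least 3 backcross generations. The protocol, worded alike for both groups, gives 600 µg of pIpC on 7 alternate days starting at 4 weeks of age, although the sample descriptions call the cells untreated. pIpC, which mimics double-stranded RNA, induces interferon, and Mx1-Cre is a recombinase transgene driven by an interferon-responsive promoter. How long after the last injection cells were taken is not stated in those labels. Only the DKO mice carried Cre, so the deletion and the transgene cannot be told apart. Each WT sample was a pool of 3 mice, pooling of the DKO samples is not stated, and the design text counts 6 mice in total, so it is unsettled whether a value stands for single mice or pools.

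MHC class II molecules are pairs of an alpha and a beta chain that present peptides from endocytosed proteins to CD4+ T cells. New pairs assemble on the invariant chain Cd74, which blocks the groove and guides them to endosomes; there the DM dimer exchanges the last invariant chain fragment for peptide, and the DO dimer restrains DM. Ciita does not bind DNA itself but is recruited by the RFX, CREB and NF-Y complexes that sit on the X and Y boxes of class II promoters, and it is switched on constitutively in B cells and dendritic cells and by interferon-gamma in many other cells.

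Promoters of classical and DO genes, chosen because their windows hold matches to the X and Y boxes known from class II promoters, are shown. The sequences are the 150 bases before the RefSeq transcript start on build GRCm38.p6, read 5′ to 3′ on the strand of the gene: H2-Aa from chr17:34287824-34287973 (minus strand), H2-Eb1 from chr17:34305717-34305866 (plus strand), H2-Oa from chr17:34092229-34092378 (plus strand) and H2-Ob from chr17:34238755-34238904 (plus strand). Capitals mark a Y box (CTGATTGG) or its core (GATTGG), the X box letters GCAAC followed after 2 or 3 bases by TGANG, and a RUNX motif (TGTGGT or TGCGGT), each searched on both strands.
H2-Aa: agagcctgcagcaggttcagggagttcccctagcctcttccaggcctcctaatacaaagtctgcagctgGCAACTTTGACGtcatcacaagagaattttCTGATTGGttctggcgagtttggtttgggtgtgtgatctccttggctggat
H2-Eb1: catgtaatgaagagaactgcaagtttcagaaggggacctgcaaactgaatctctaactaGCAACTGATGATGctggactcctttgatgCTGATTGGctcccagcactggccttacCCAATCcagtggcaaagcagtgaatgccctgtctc
H2-Oa: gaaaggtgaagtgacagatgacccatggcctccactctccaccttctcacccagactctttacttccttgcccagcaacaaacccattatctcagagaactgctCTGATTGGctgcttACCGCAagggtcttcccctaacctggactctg
H2-Ob: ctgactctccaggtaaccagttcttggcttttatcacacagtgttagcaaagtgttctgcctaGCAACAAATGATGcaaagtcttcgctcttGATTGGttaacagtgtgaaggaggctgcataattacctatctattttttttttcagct
H2-Aa held the Y box at -51 to -44 from the start and the X letters at -81 to -70. H2-Eb1 held the Y box at -62 to -55, the X letters at -91 to -79 and a further core on the opposite strand at -35 to -30. H2-Oa held the Y box at -46 to -39 and GCAAC at -76 to -72 without TGANG behind it, left in lower case. H2-Ob held the Y box core at -58 to -53 and the X letters at -87 to -75. H2-Oa also had a RUNX motif on the opposite strand at -32 to -27, whereas the 250 bases before the starts of H2-Aa, H2-Eb1 and H2-Ob had no match to it. The windows of the DM genes held neither a full Y box nor the X letters with TGANG and are not printed. H2-DMa had 2 windows, one with the Y box core at -199 to -194 and a RUNX motif at -64 to -59, the other with GCAAC on the opposite strand at -7 to -3 as its only match. H2-DMb1 held the Y box core at -62 to -57 and a RUNX motif on the opposite strand at -154 to -149, and H2-DMb2 held the core at -91 to -86. Among all 32851 mouse promoter windows of 250 bases in the same RefSeq table, 3.83% held the Y box, 14.6% its core, 29.9% GCAAC, 0.347% the X letters with TGANG and 18.6% a RUNX motif. The core lies within the Y box, and GCAAC within the longer X letters, so these shares overlap. A match is a run of letters and not a measured binding site. The table lists no window for H2-Ab1, Cd74 and Ciita. In RefSeq order, H2-Oa, H2-DMa, H2-DMb2, H2-DMb1, H2-Ob, H2-Ab1, H2-Aa and H2-Eb1 follow each other on chromosome 17, in the MHC region. Ciita and Cd74 lie on other chromosomes.

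All signals below are deposited log2 values, and a difference is DKO minus WT on that scale, so 1 unit is a doubling. Arrays correlated (Pearson, 19938 genes) at 0.9935 to 0.9946 among DKO, at 0.9895 to 0.991 among WT and at 0.9758 to 0.9797 across the groups. Median SDs per gene were 0.0985 among the DKO arrays and 0.125 among the WT arrays. Runx1 itself was 9.29 ± 0.08 on the DKO arrays and 8.47 ± 0.08 on the WT arrays (SD, n = 3 each), a difference of 0.82 (limma adjusted p = 0.000427), and Runx3 differed by -0.15 (adjusted p = 0.253). A gene-level signal that also averages probes outside deleted exons cannot check a deletion, so DKO below means arrays labelled so. Of 12 genes of the KSL gate and lineage panel, 4 rose (Kit by 0.73, Slamf1 by 1.95, Cd48 by 1.46 and Ptprc by 0.76) and 1 fell (Flt3, a receptor of lymphoid-primed progenitors, by 1.32). The other 7 did not pass, Cd34 among them at 0.02. Of all genes, 17.4% were called in either direction. Kit, which defines the gate, had 10.35, 10.72 and 10.38 on the DKO arrays, against 9.78, 9.63 and 9.85 on the WT arrays. Ly6a, the gene of Sca1, had no probe set with its symbol and was not tested.

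The class II group did not move as one. H2-DMa, H2-Oa and H2-Ob, all parts of the peptide-loading step, rose in DKO KSL cells. The 3 classical chains spread widely among the DKO arrays and did not pass, Cd74 had a negative difference that did not pass, and Ciita differed by 0.03. With limma and Benjamini-Hochberg adjustment over all 19938 genes at 0.05, 3 of 8 class II and Ciita genes were higher, 0 were lower and 5 did not pass. Of all genes, 9.71% were called higher, 7.69% lower and 17.4% in either direction, so 3 of 8 is above the share of all genes called higher, on a small number of genes and with no test. The median difference was 0.55 over the 8 genes and -0.04 over all genes. DKO and WT values did not overlap for 3 of the 8 genes, against 35.8% of all genes, a share that is close to theirs. In bulk samples of this kind, fewer or more cells of a type and less or more RNA per cell cannot be told apart.

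**Figure D1:**
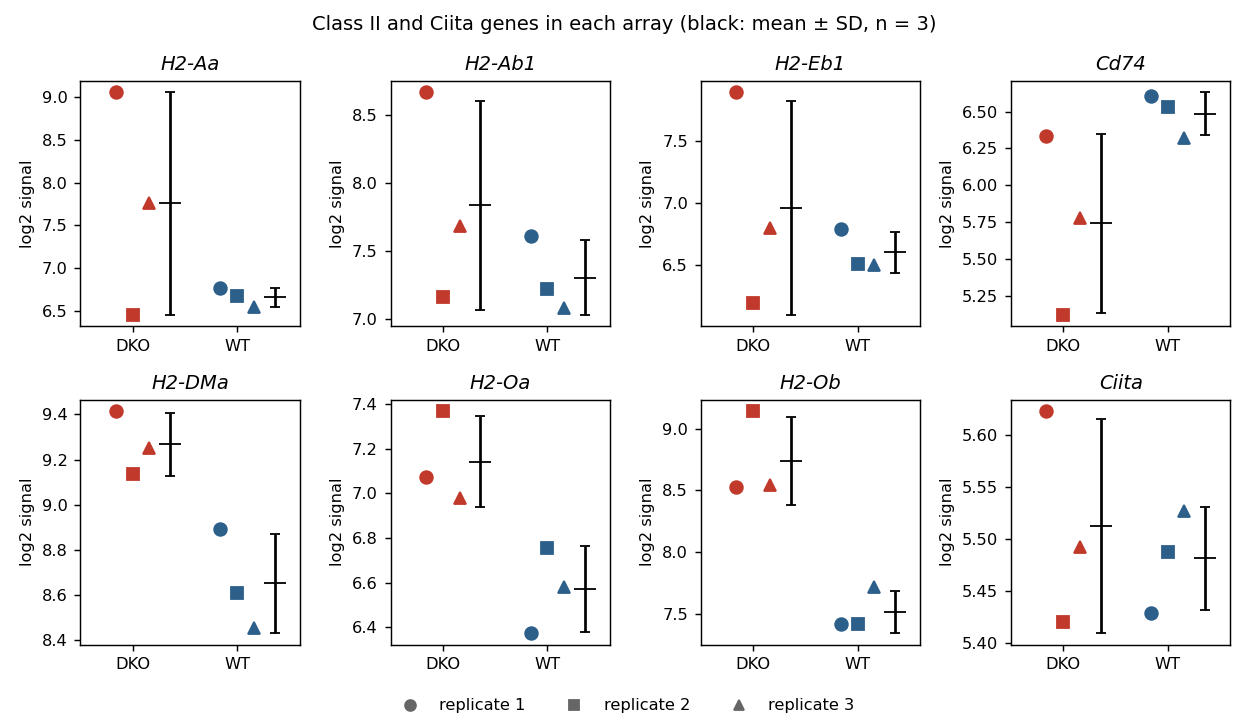
Deposited log2 signal (y axis, own range for each gene) of the 8 class II and Ciita genes on the 3 DKO arrays and the 3 WT arrays, where each point is 1 array, its shape gives the replicate number and black lines give the group mean ± SD (n = 3). H2-DMa, H2-Oa and H2-Ob separate the groups, while H2-Aa, H2-Ab1, H2-Eb1 and Cd74 spread over the DKO arrays with replicate 1 at the top and replicate 2 at the bottom.

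Among the classical chains, H2-Aa (probe set 10450154), the alpha chain of the I-A molecule, had signals of 9.05, 6.45 and 7.76 on DKO arrays 1, 2 and 3, against 6.76, 6.67 and 6.54 on the WT arrays. DKO 1 and DKO 3 lay above every WT array and DKO 2 lay below them all. The mean difference was 1.10 (SE 0.496, 95% interval -0.01 to 2.21), which did not pass (adjusted p = 0.166). DKO replicate 2 decided that call: without it the difference was 1.75 and passed (adjusted p = 0.00978), and without DKO replicate 1 it was 0.45 (adjusted p = 0.417), the ends of its range over 16 alternatives.

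H2-Ab1 (probe set 10444291), the I-A beta chain, had signals of 8.67, 7.16 and 7.68 on the DKO arrays, against 7.61, 7.22 and 7.08 on the WT arrays. The groups overlapped, with DKO 2 inside the WT range. Its difference was 0.53 (SE 0.315, 95% interval -0.17 to 1.24, adjusted p = 0.293), and leaving out single arrays moved it between 0.12, without DKO replicate 1, and 0.87, without DKO replicate 2.

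H2-Eb1 (probe set 10444298) is the beta chain of I-E, the second class II molecule, whose alpha chain gene is defective in the haplotype of C57BL/6 mice. Its signals were 7.89, 6.19 and 6.79 on the DKO arrays, against 6.79, 6.51 and 6.50 on the WT arrays. DKO 1 was again the highest of all 6 arrays and DKO 2 the lowest. The difference of 0.36 (SE 0.338, 95% interval -0.40 to 1.12) did not pass (adjusted p = 0.520) and turned to -0.11 without DKO replicate 1, with 0.74 without DKO replicate 2.

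The invariant chain Cd74 (probe set 10456005) had signals of 6.33, 5.12 and 5.77 on the DKO arrays, against 6.60, 6.53 and 6.32 on the WT arrays. DKO 1 reached the lowest WT array, and the other DKO arrays lay below all WT arrays. Its difference of -0.74 (SE 0.247, 95% interval -1.30 to -0.19) missed the threshold (adjusted p = 0.0686). Without DKO replicate 1 it was -1.04 and passed (adjusted p = 0.0116), and without DKO replicate 2 it was -0.43 (adjusted p = 0.146). Over all 16 alternatives its adjusted p ran from 0.0116 to 0.161.

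Of the peptide-loading genes, H2-Ob (probe set 10444284), the DO beta chain, gave the clearest rise. Its signals were 8.53, 9.14 and 8.54 on the DKO arrays, against 7.42, 7.42 and 7.72 on the WT arrays. All DKO arrays were above all WT arrays, by 1.22 on average (SE 0.167, 95% interval 0.84 to 1.59), which is 2.33-fold (adjusted p = 0.00135).

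H2-Oa (probe set 10444223), the DO alpha chain, had signals of 7.07, 7.37 and 6.98 on the DKO arrays, against 6.37, 6.76 and 6.58 on the WT arrays. The groups did not overlap, and the rise was 0.57 (SE 0.131, 95% interval 0.28 to 0.87), or 1.49-fold (adjusted p = 0.0160). This call was lost without DKO replicate 2 (0.46, adjusted p = 0.0574) and when every probe set was tested (adjusted p = 0.0535), in a range of 0.00750 to 0.0574 over the alternatives.

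H2-DMa (probe set 10444229), the alpha chain of the peptide exchange factor, had signals of 9.42, 9.14 and 9.25 on the DKO arrays, against 8.89, 8.61 and 8.46 on the WT arrays. These groups did not overlap either, and the rise was 0.62 (SE 0.126, 95% interval 0.33 to 0.90), or 1.53-fold (adjusted p = 0.00912). H2-DMa and H2-Ob passed under all 16 alternatives tried, H2-Oa under 14 of them.

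Ciita (probe set 10433507), the transactivator, had signals of 5.62, 5.42 and 5.49 on the DKO arrays, against 5.43, 5.49 and 5.53 on the WT arrays. DKO 1 lay above every WT array, DKO 2 narrowly below them all and DKO 3 among them. Every value was below the median signal of its array. The difference was 0.03 (SE 0.0897, adjusted p = 0.850), and its 95% interval of -0.17 to 0.23 bounds a change of Ciita signal in either direction. It turned to -0.025 without DKO replicate 1.

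**Figure D2:**
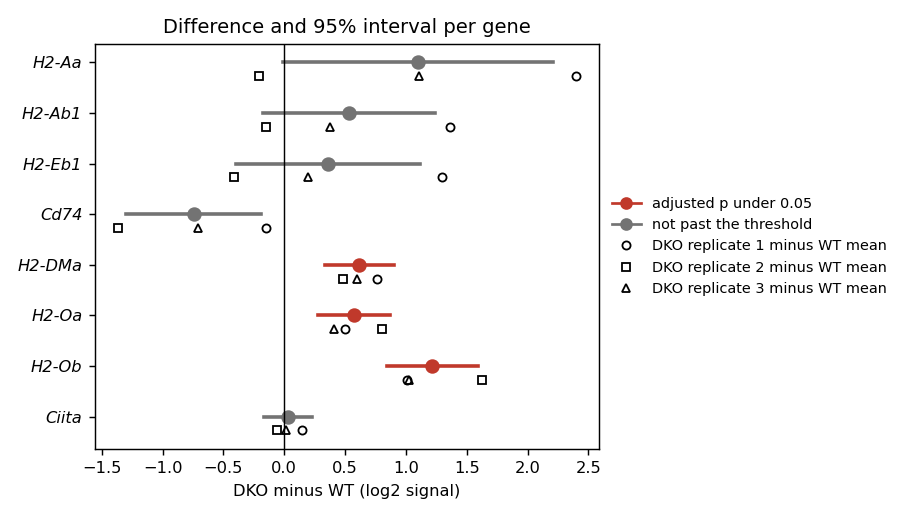
Difference in log2 signal, DKO minus WT (x axis), of each class II and Ciita gene, with filled points for the fitted value, lines for the 95% interval and open symbols for each DKO array minus the WT mean. The intervals of H2-Ob, H2-DMa and H2-Oa lie above 0 and their adjusted p passed, that of Cd74 lies below 0 with an adjusted p of 0.0686, and those of H2-Aa, H2-Ab1, H2-Eb1 and Ciita cross 0.

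The spread among the DKO arrays set the classical chains apart as a measurement in its own right. H2-Aa had an SD of 1.30 within DKO and 0.111 within WT, and its DKO SD ranked 1 among 19938 genes, also after quantile normalisation, cyclic loess or median centring. Its highest and lowest DKO arrays lay 2.61 apart on the log2 scale, a 6.09-fold span. H2-Eb1 had an SD of 0.864 within DKO and 0.164 within WT (rank 7 of the DKO SDs), H2-Ab1 0.767 within DKO and 0.274 within WT (rank 15), and Cd74 0.608 within DKO and 0.146 within WT (rank 31). An SD of at least 0.5 within DKO was seen in 0.336% of all genes. The WT SDs of these 4 genes were smaller, from 0.111 to 0.274, and ranked between 1852 and 11386. The labels give pools of 3 mice for WT and state no pooling for DKO. Genotype and pooling therefore cannot be told apart in this contrast of spreads.

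The loading genes and Ciita had smaller SDs among the DKO arrays than the 4 genes above, though all were above the median of all genes. H2-DMa had an SD of 0.141 within DKO and 0.221 within WT (rank 5510 of the DKO SDs), H2-Oa 0.204 within DKO and 0.192 within WT (rank 2090), and Ciita 0.103 within DKO and 0.0496 within WT (rank 9437). H2-Ob lay between, at 0.353 within DKO and 0.172 within WT (rank 289). In all, 7 of the 8 genes had a larger SD within DKO than within WT, which held for 39.24% of all genes. No test was made of the spread, since an SD from 3 arrays is itself imprecise.

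**Figure D3:**
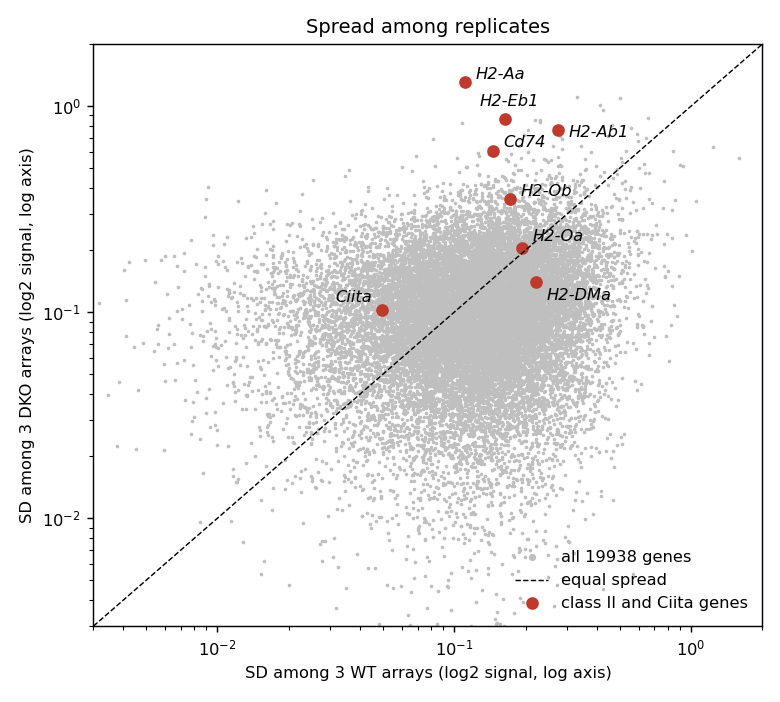
SD of each gene among the 3 DKO arrays (y axis) against its SD among the 3 WT arrays (x axis), both on log axes in units of log2 signal, with grey points for all 19938 genes, red points for the class II and Ciita genes and a dashed line at equal spread. H2-Aa, H2-Eb1, H2-Ab1 and Cd74 lie at the upper edge of the cloud, at DKO SDs of 1.30, 0.864, 0.767 and 0.608.

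H2-Aa, H2-Ab1, H2-Eb1 and Cd74 shared the order of the DKO arrays: replicate 1 was highest, replicate 3 came between and replicate 2 was lowest. Their mean signal was 7.99, 6.23 and 7.00 on DKO arrays 1, 2 and 3, against 6.94, 6.73 and 6.61 on the WT arrays. After subtraction of each group's mean, the Pearson correlation over the 6 arrays between pairs of these 4 genes lay between 0.949 (H2-Aa with H2-Ab1) and 0.988 (H2-Aa with Cd74). These are descriptions of 6 points dominated by the 3 DKO arrays, and all 4 genes were read on the same arrays. With the group difference left in, Cd74 correlated with H2-Aa at 0.134 only, since Cd74 was lower and H2-Aa higher on most DKO arrays.

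H2-DMa and Ciita had the same DKO order over a narrow range, and H2-Oa and H2-Ob did not. Of all genes, 14.4% showed this order. The DKO SD of Ciita was 0.103, close to the median of 0.0985 over all genes, at signals below the array median. Against the mean of the 4 genes, deviations correlated at 0.801 for Ciita, at 0.684 for H2-DMa, at -0.571 for H2-Oa and at -0.807 for H2-Ob. H2-Oa and H2-Ob were highest on DKO array 2, the array on which the classical chains were lowest. H2-Oa and H2-Ob correlated with each other at 0.645 in deviations and at 0.926 over the 6 arrays.

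The genes most like the mean of H2-Aa, H2-Ab1, H2-Eb1 and Cd74 were sought by the same correlation. Over the 6 arrays as they stand, among 549 genes with an SD of at least 0.5, the 12 closest were Gbp4 (r = 0.908), Abcg3 (0.828), Gm4841 (0.818), Iigp1 (0.804), Gm4951 (0.765), Gm12185 (0.732), Clca3a1 (0.685), Clca3a2 (0.642), Gbp9 (0.614), F13a1 (0.609), Mir505 (0.601) and Snora20 (0.575). Gbp4 and Gbp9 are guanylate-binding proteins, and Iigp1, Gm4841, Gm4951 and Gm12185 belong to the immunity-related GTPases, both of them families known as interferon-inducible. Genes of both families have close relatives, so their signals may be shared.

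Iigp1 had signals of 9.12, 7.00 and 8.58 on the DKO arrays, against 7.33, 6.34 and 6.96 on the WT arrays, and did not pass (1.36, adjusted p = 0.0721). Gbp4 had 6.67, 5.07 and 6.09 on the DKO arrays, against 5.96, 5.07 and 5.29 on the WT arrays (0.50, adjusted p = 0.384). Gm4951 had 9.25, 7.23 and 9.02 on the DKO arrays, against 7.31, 6.73 and 6.73 on the WT arrays, a rise that passed (1.58, adjusted p = 0.0358). All 3 repeated the DKO order of the classical chains, with array 3 nearer to array 1 in Iigp1 and Gm4951 than it was in H2-Aa. They had been picked for their correlation with those chains, so the shared order is not a separate result. Of the same set, F13a1 (7.76, 6.44 and 7.99) and Clca3a2 (7.04, 6.35 and 6.15) had other orders on DKO arrays 1, 2 and 3.

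On deviations from group means, among 645 genes with a pooled SD within groups of at least 0.3, the closest were H2-Q5 (r = 0.979), Incenp (0.958), Gm12185 (0.929), Gbp3 (0.923), Olfr663 (0.909), H2ac4 (0.909), H4c4 (0.909), Gbp4 (0.906), Abcg3 (0.903), Gm12250 (0.888), Olfr345 (0.886) and Cldn13 (0.884). H2-Q5 is a pseudogene of the class I region. It had 7.25, 6.38 and 6.76 on the DKO arrays, against 6.94, 6.85 and 6.62 on the WT arrays. Gbp3 had 7.61, 6.25 and 7.15 on the DKO arrays, against 6.70, 6.83 and 6.84 on the WT arrays (0.21, adjusted p = 0.646). Gbp4, Abcg3 and Gm12185 were in both sets of 12. The olfactory receptor genes Olfr663 and Olfr345 had signals under each array's lower quartile, and the histone genes H2ac4 and H4c4 are members of families with near-identical copies.

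**Figure D4:**
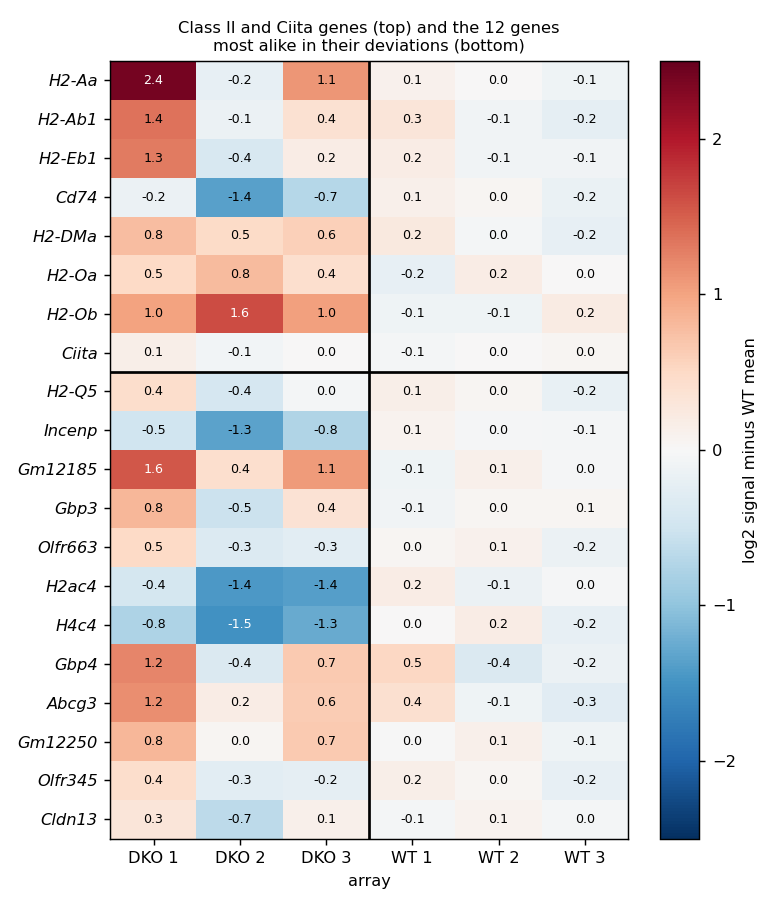
Log2 signal minus the WT mean of the gene (colour and printed value) on each array (columns) for the 8 class II and Ciita genes (upper rows) and the 12 genes closest to the mean of H2-Aa, H2-Ab1, H2-Eb1 and Cd74 in their deviations from group means (lower rows). H2-Aa, H2-Ab1, H2-Eb1 and Cd74 are highest on DKO array 1 and lowest on DKO array 2, where H2-Oa and H2-Ob peak. All 12 lower rows, which were picked for this likeness, have their highest DKO value on array 1 and their lowest on array 2.

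Of the 40 genes with the largest DKO SDs, 14 had DKO replicate 1 highest and replicate 2 lowest, an order shown by 14.4% of all genes. The 14 include H2-Aa, H2-Eb1, H2-Ab1 and Cd74, from which this order was taken, so the count is not independent of them. Ranks 2 and 3 after H2-Aa were held by Gm4951 and Iigp1. How the 14 genes come to share the order was not tested.

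The list counts from here on stand beside 9.71% of all genes called higher, 7.69% lower and 17.4% in either direction. No list was tested against these shares. Of 11 genes for the DNA-binding complexes and coactivators of class II promoters, 6 rose, 1 fell and 4 did not pass, with a median difference of 0.32. The acetyltransferases Ep300 (0.72, adjusted p = 0.000522), Kat2b (0.57) and Crebbp (0.37), the transcription factor Creb1 (0.43) and the NF-Y subunits Nfyc (0.43) and Nfya (0.32) rose. The chromatin remodelling ATPase Smarca4 fell by 0.32. Rfx5, a subunit of the RFX complex, had 6.51, 6.52 and 6.58 on the DKO arrays, against 6.70, 6.63 and 6.88 on the WT arrays (-0.20, adjusted p = 0.177). Rfxank and Rfxap did not pass either.

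Factors that control Ciita itself went both ways, with 3 of 13 genes higher, 2 lower and 8 not passing (median 0.22). The interferon-gamma receptor chain Ifngr1 (0.47, adjusted p = 0.00693) and the kinases Jak2 (0.66) and Jak1 (0.39) rose. Irf8, a transcription factor of dendritic and monocyte precursors, had 6.21, 5.94 and 6.22 on the DKO arrays, against 6.79, 6.97 and 7.20 on the WT arrays, and fell by 0.87 (adjusted p = 0.00173). Spi1, which encodes PU.1, fell by 0.62 (adjusted p = 0.00138). Irf1, which acts on an interferon-gamma responsive Ciita promoter, had 7.58, 7.16 and 7.55 on the DKO arrays, against 7.39, 7.09 and 7.14 on the WT arrays and did not pass (adjusted p = 0.295).

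Of 17 genes of antigen processing and class II traffic, 3 rose, 1 fell and 13 did not pass (median -0.07), beside 17.4% of all genes called in either direction. The lysosomal membrane protein Lamp2 rose by 0.97 (adjusted p = 0.000168), Tmem176a, a membrane protein of antigen-presenting cells, by 0.62, and Sppl2a, the protease that removes the Cd74 remnant, by 0.39. The thiol reductase Ifi30 fell by 0.35 (adjusted p = 0.0438). Ctss, the cathepsin that cleaves the invariant chain, had 7.66, 7.25 and 8.17 on the DKO arrays, against 8.12, 8.52 and 8.27 on the WT arrays and did not pass (-0.61, adjusted p = 0.0721).

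The class I pathway had 3 of 16 tested genes higher, 0 lower and 13 not passing (median 0.11). The trimming peptidase Erap1 rose by 0.84 (adjusted p = 0.000590), the chaperone Canx by 0.38 and the class I light chain B2m by 0.33. H2-K1, H2-D1 and H2-T23 lay in probe sets with several symbols and are not analysed here. Among interferon-gamma response genes, 3 of 11 rose, 0 fell and 8 did not pass (median 0.21). These were Cd274, which encodes the checkpoint ligand PD-L1 (1.88, adjusted p = 6.44e-05), Gbp7 (0.57) and Irgm1 (0.44). The summed linear signal of these 11 genes was 2261, 1579 and 2013 on DKO arrays 1, 2 and 3, against 1201 to 1239 on the WT arrays. The class I sum was 16980, 14620 and 16280 on DKO arrays 1, 2 and 3, against 13410 to 14520 on the WT arrays. Both sums had the DKO order of the classical chains, also without the gene of highest mean signal in each list (Gbp7 and B2m). Iigp1 and Gbp3, named above for their likeness to those chains, stayed in the interferon-gamma sum. Their DKO SDs were 1.10 and 0.695, and Iigp1 had log2 signals of 9.12, 7.00 and 8.58 on the DKO arrays. No sum was taken without them. The sum of the Ciita control genes had it too, at 4691, 4518 and 4655 on the DKO arrays, against 3766 to 3855 on the WT arrays, but not without its brightest gene Ezh2 (3474, 3532 and 3429 on the DKO arrays). The part of these lists in the spread of the classical chains was not tested.

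Of 10 surface partners of antigen presentation, 5 rose, 0 fell and 5 did not pass (median 0.50). Besides Cd274, the adhesion ligand Cd48 (1.46, adjusted p = 7.18e-05), the tetraspanin Cd53 (1.35), the Toll-like receptor relative Cd180 (1.02) and Pdcd1lg2, which encodes PD-L2 (0.81), rose. The costimulatory ligands Cd80 (0.19, adjusted p = 0.371) and Cd86 (0.19, adjusted p = 0.482) did not pass. Cd48, Cd53 and Cd180 are widespread on blood cells and are not specific to antigen presentation.

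**Figure D5:**
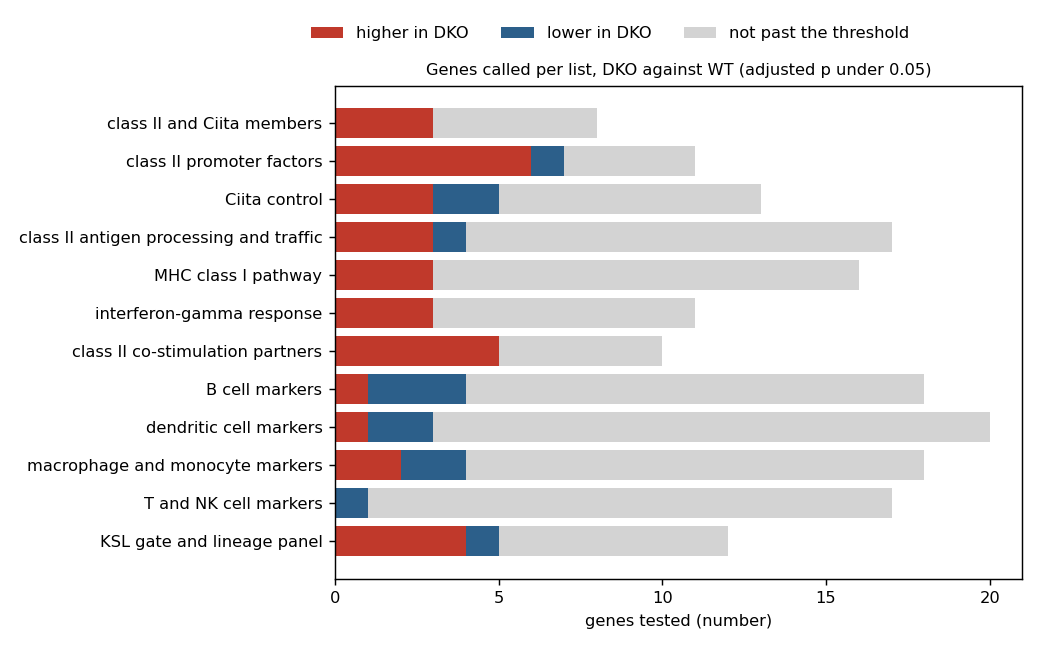
Number of genes (x axis) of each pathway or marker list (rows) that were higher, lower or not past the threshold in DKO minus WT. The class II promoter factors (6 of 11) and the co-stimulation partners (5 of 10) hold the largest numbers of higher genes, and 0 of 17 T and NK cell markers were higher. Of all genes, 9.71% were higher and 7.69% lower.

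Mature blood cells, among them the B cells and dendritic cells in which Ciita is switched on constitutively, were examined through their markers. Of 18 B cell markers, 1 rose, 3 fell and 14 did not pass, and 12 lay below the array median and 5 below the lower quartile on every array. Among the latter was the antigen receptor component Cd79a, at 4.05, 4.36 and 4.12 on the DKO arrays, against 4.26, 4.38 and 4.68 on the WT arrays. Cd79b, Pou2af1, Ighm and Cd24a lay above the array median on every array. Cd79b had 7.16, 7.10 and 7.13 on the DKO arrays, against 6.78, 7.13 and 7.28 on the WT arrays. The shares of all genes below these marks on every array were not taken, here or for the lists below. Jchain, a gene of antibody-secreting cells, fell by 1.62 (adjusted p = 0.0141), Cd24a by 0.67 and the signalling adaptor Blnk by 0.58, and the complement receptor Cr2 rose by 0.48. The summed linear signal of the list was 2303, 2094 and 2191 on DKO arrays 1, 2 and 3, against 3087 to 3302 on the WT arrays. This sum had the DKO order of the classical chains. Most of this sum was Cd24a, and the median difference of the list was -0.14. Without Cd24a the sum was 839.9, 886.2 and 789 on DKO arrays 1, 2 and 3, against 947, 1142 and 1011 on the WT arrays. It no longer had that order. Jchain, which stayed in this sum, had log2 signals of 6.33, 6.91 and 5.45 on the DKO arrays, and no sum was taken without it. The part of these markers in the class II signals was not tested.

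Of 20 dendritic cell markers, 1 rose, 2 fell and 17 did not pass, with 12 below the array median on every array. The cytokine receptor chain Csf2rb rose by 1.50 (adjusted p = 0.000177), and Id2 fell by 0.53 and Fscn1 by 0.28. Clec9a, a receptor of cross-presenting dendritic cells and their precursors, had 6.32, 5.91 and 4.68 on the DKO arrays, against 4.60, 4.32 and 4.76 on the WT arrays (1.08, adjusted p = 0.0569). Its high DKO arrays were 1 and 2, and DKO array 3 lay within the WT range. The summed signal of the list was 1509, 1503 and 1441 on DKO arrays 1, 2 and 3, against 1367 to 1539 on the WT arrays, so the groups overlapped.

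Macrophage and monocyte markers had 2 of 18 genes higher, 2 lower and 14 not passing, with 11 below the array median on every array. Cd163 rose by 0.64 and the lysozyme gene Lyz2 by 0.35, while the chemokine receptor Ccr2 fell by 0.75 and Mertk by 0.30. Their summed signal was 1197, 1251 and 1327 on DKO arrays 1, 2 and 3, against 1224 to 1257 on the WT arrays, so the groups overlapped. T and NK cell markers had 0 of 17 higher, 1 lower, which was Cd28, and 16 not passing. Of these markers, 14 lay below the array median and 8 below the lower quartile on every array, and their sum was 540.8 to 560.5 on the DKO arrays and 548.5 to 620.4 on the WT arrays. No cell type's part in the class II signals was tested.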

How the data were processed

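The deposited values were log2 signals per probe set from Affymetrix Mouse Gene 1.0 ST arrays. The sample titles name gene-level RMA, whereas the design text names preliminary MAS 5.0; the values, from 1.25 to 13.7, are on a log scale. Per the labels' protocols, NuGEN's Pico kit amplified the RNA. Per the submitters' processing notes, the software was Affymetrix Expression Console 1.0. The background settings and genome build were not found in these sources. Of 35556 probe sets, 21789 had 1 symbol, 1621 several and 12146 none. The 6 arrays were fitted with limma 3.58.1 in R 4.3.3 (lmFit and eBayes, two-sided, DKO minus WT, prior df 5.52, residual df 4), with Benjamini-Hochberg adjustment over 19938 genes and no filter on dim signals. An exact permutation test of 3 against 3 cannot go below 0.1 and was not used. The fit was tested on simulated data. No 2 arrays were duplicates. The labels call the samples biological replicates, and the number of arrays limits the precision. The genes and lists were chosen with earlier results of these data known. Named genes are the class II and Ciita genes, Runx1 and Runx3, the 12 closest genes by each correlation, and up to 6 genes with the smallest p per list; genes named beside these (Rfx5, Rfxank, Rfxap, Irf1, Ctss, Cd80, Cd86, Cd79a, Clec9a, Cd34, and those of the closing section) were chosen by role or after their values were seen. Sums of linear signal over a list were also taken without its brightest gene, an alternative chosen after seeing the data. Alternatives were 3 normalisations, 2 filters on dim genes, 2 choices of probe set, other eBayes settings, array weights, a replicate block and leaving out each array.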

Additional observations from a re-analysis of the deposited data

How the results depend on the processing

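Over the 8 genes and 16 alternatives, 120 of 127 values kept their direction and their side of the threshold, 2 changed sign, 3 newly passed and 2 no longer passed. The sign changes were H2-Eb1 (-0.11, range without single arrays -0.11 to 0.74) and Ciita (-0.025, range -0.025 to 0.077), both without DKO replicate 1. Ciita had no value under the stricter filter on dim genes, which removed it. Leaving out single arrays gave 1250 to 1868 genes higher and 843 to 1388 lower, beside 1936 and 1533 with all arrays. With all probe sets tested, 1372 genes were higher and 908 lower. A fit with fewer arrays has less power. Testing all probe sets changed both the adjustment and the fitted variances, with an SE of 0.191 for H2-Ob beside 0.167 in the main fit.

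With the replicate number as a block, 4 of the 8 genes passed, the added one being Cd74 (adjusted p = 0.0288, in the range of 0.0116 to 0.161 over its alternatives), and 1772 genes were higher and 1272 lower over all genes. Deviations of DKO and WT arrays of the same number correlated at -0.00874, -0.0954 and -0.0419, so the numbers were not treated as pairs. With 3 arrays a group, values such as that of H2-Aa, with an SE of 0.496, stay wide.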

Other observations

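Other genes with a wide spread among the DKO arrays, named after their values were seen, had other orders of the arrays. Clec1b, a platelet receptor gene that stands 4th by DKO SD, had 6.96, 6.48 and 5.01 on DKO arrays 1, 2 and 3. Dntt, the template-independent polymerase of lymphocyte precursors, had 6.26, 7.65 and 7.50 on the DKO arrays, lowest on the array where the classical class II chains were highest. Ctsg, the neutrophil protease cathepsin G, had 9.07, 7.76 and 9.29 on the DKO arrays, and F13a1, a coagulation factor subunit, had 7.76, 6.44 and 7.99, both lowest on DKO array 2 as the classical chains were. These are values of single arrays with no test.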
